A study of Homo sapiens with 2 samples.

Results

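The chromatin loops of 3 genes, PHLDB2, TXNRD1 and ACTN4, were described in H3K27ac HiChIP data of HCT116, a widely used cell line from a human colorectal carcinoma. HiChIP joins chromatin fragments that lie close together in the nucleus by ligation and enriches them by immunoprecipitation. Here the antibody was against H3K27ac, a histone mark of active promoters and enhancers, and each read pair stands for a contact of marked chromatin. A loop is a pair of different anchors, the chromatin segments between which contacts were counted, on 1 chromosome with midpoints up to 2 Mb apart. A loop belonged to a gene when at least 1 of its anchors overlapped the interval of the gene. It was inside the gene when both anchors did and left the gene when 1 did. By this rule 1471 of 1973472 loops were members, 794 in replicate 1 and 948 in replicate 2, of which 336 lay inside and 1135 left the genes. The genes were chosen by the counts of their intragenic loops in these same data, so all values of loops inside against loops leaving are descriptions without a test.

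The data comprised 2 replicates of 1 condition, HCT116 cells in serum-containing medium with no treatment named. The labels do not say whether the replicates came from separate cultures. P-values between them set the difference of 2 libraries, which may be technical, against counting error alone. The deposited values were raw counts of read pairs that joined anchors, without normalization, and they summed to 1885481 in replicate 1 and 2131466 in replicate 2. Loops within 2 Mb held 1187130 and 1369538 of these counts, and counts that joined an anchor with itself were 302149 and 302293. There were 250223 anchors with a median width of 2542 bp. With no molecular identifiers in the tables, all intervals and p-values given here cover counting error only. Copy number was not measured here, and more copies of a region and more contacts per copy cannot be told apart in these counts.

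The genes encode unrelated proteins. PHLDB2 (LL5-beta) binds phosphoinositides at the cell cortex and helps to anchor microtubule ends near integrin adhesions. TXNRD1 is the cytosolic selenoenzyme that reduces thioredoxin with NADPH, a target gene of the oxidative stress factor NRF2. ACTN4 is a non-muscle alpha-actinin that cross-links actin filaments and connects them to adhesions. Long introns of active genes often hold enhancers, and contacts between a promoter and an enhancer within its own gene are then seen as intragenic loops. AP-1, the dimer of FOS and JUN proteins, is a common factor at enhancers of epithelial cancer cells.

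All positions are on hg19 (GRCh37) and counted from 1, with genes from GENCODE release 44, and all 3 genes lie on the plus strand. The exon numbers are those of the longest protein-coding transcript. PHLDB2 (ENSG00000144824.21_16) has 18 exons from chr3:111451344-111695114 in ENST00000393923.7_3, while its canonical transcript starts far downstream, at 111578112. TXNRD1 (ENSG00000198431.18_16) has 17 exons at chr12:104609557-104744085. ACTN4 (ENSG00000130402.14_14) has 21 exons at chr19:39138289-39222229. They span 243.8, 134.5 and 83.9 kb and were overlapped by 31, 13 and 10 anchors, which are numbered here in the direction of transcription. Every one of these 54 anchors began and ended at GATC, the site of the enzyme MboI with which the chromatin had been cut.

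The promoters are shown because their place relative to the anchors decides which loops can be seen. Each sequence is the 250 bases before a start site, 5′ to 3′ on the plus strand of the reference. Capitals mark TGANTCA or TGACNNNGC, searched on both strands. TGANTCA is a looser form of the AP-1 motif, which has C or G at the centre, so matches with A or T there are not that motif. TGACNNNGC is the core of the antioxidant response element to which NRF2 binds. The first ACTN4 start lay in anchor 1 of that gene. A later ACTN4 start, at 39154182 in intron 1, lay in no anchor, 1.93 kb from anchor 4, and is not shown. The canonical start of PHLDB2 and its neighbours lay in anchor 17, with the most upstream start of that anchor shown here. The first start of TXNRD1 lay 1.90 kb outside the nearest anchor, and 13 other start sites of its shorter transcripts lay in anchor 6, of which the first in the basic annotation is shown. The first start of PHLDB2 also lay in no anchor, 1.78 kb from anchor 1.
ACTN4 chr19:39138039-39138288: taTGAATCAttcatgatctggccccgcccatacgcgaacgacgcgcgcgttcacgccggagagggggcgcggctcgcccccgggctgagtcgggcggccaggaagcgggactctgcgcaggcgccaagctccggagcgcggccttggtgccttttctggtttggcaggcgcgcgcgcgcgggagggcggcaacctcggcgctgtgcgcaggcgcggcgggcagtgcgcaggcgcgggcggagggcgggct
PHLDB2 chr3:111577777-111578026: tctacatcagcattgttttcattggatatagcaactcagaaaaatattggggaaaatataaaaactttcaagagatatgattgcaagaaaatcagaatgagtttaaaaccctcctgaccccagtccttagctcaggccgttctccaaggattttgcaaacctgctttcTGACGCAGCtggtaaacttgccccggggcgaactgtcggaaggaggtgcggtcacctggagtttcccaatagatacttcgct
TXNRD1 first start chr12:104609307-104609556: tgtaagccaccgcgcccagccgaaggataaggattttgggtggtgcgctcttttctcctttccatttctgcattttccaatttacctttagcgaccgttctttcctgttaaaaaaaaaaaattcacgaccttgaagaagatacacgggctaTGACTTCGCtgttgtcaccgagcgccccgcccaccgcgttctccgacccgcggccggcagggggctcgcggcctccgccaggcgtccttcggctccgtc
TXNRD1 inner start chr12:104680210-104680459: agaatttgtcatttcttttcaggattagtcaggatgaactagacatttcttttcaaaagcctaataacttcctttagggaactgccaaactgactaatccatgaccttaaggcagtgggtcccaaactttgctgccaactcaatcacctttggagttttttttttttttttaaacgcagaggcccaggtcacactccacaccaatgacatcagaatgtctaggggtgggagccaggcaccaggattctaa
The ACTN4 promoter shown held 1 match of TGANTCA, with A at the centre, and that of the later ACTN4 start also held 1. Of 19869 promoters of protein-coding genes of the same length, 4.70% held a match of TGANTCA. The PHLDB2 promoter and the first TXNRD1 promoter each held 1 match of TGACNNNGC, found in 11.3% of all promoters. The inner TXNRD1 promoter held neither. A match is a description of the letters and not a binding site.

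In each gene 1 anchor held the most inside counts. It lay in intron 1 of ACTN4 at chr19:39172286-39178281 (5996 bp), in intron 3 of TXNRD1 at chr12:104669475-104677093 (7.62 kb) and over exons 7 to 8 of PHLDB2 at chr3:111646150-111660188 (14.0 kb). The matches of TGANTCA in the first 2 of these anchors are shown with 12 bases on either side, on the plus strand with the motif in capitals. TGANTCA reads alike on both strands, and the matches include some with A or T at the centre.
ACTN4 chr19:39174225-39174255: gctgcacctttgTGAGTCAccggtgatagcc
ACTN4 chr19:39174493-39174523: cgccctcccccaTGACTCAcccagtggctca
ACTN4 chr19:39174829-39174859: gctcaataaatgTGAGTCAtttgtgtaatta
ACTN4 chr19:39175301-39175331: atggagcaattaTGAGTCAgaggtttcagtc
ACTN4 chr19:39176444-39176474: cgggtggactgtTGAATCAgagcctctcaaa
TXNRD1 chr12:104671418-104671448: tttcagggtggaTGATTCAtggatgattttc
TXNRD1 chr12:104673236-104673266: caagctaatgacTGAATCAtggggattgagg
TXNRD1 chr12:104674035-104674065: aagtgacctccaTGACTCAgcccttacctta
TXNRD1 chr12:104674623-104674653: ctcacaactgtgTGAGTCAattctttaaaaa
The ACTN4 anchor held 5 matches, and 7.56% of 12304 anchors of like width (within 10%) held as many, with a median of 2. The TXNRD1 anchor held 4, which 27.5% of 6922 anchors of like width reached. The PHLDB2 anchor also held 5, which was the median of 1065 anchors of like width. Over all anchors of a gene, the density of the motif was 0.363 per kb in PHLDB2, 0.408 in TXNRD1 and 0.361 in ACTN4, beside 0.352 in all nuclear anchors. ACTN4 anchors had a median GC content of 50.5% and 3.52 GATC sites per kb, compared with 40.9% and 2.64 over all nuclear anchors. In PHLDB2 these were 39.5% and 2.31, and in TXNRD1 40.2% and 2.20.

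Within 2 Mb, the share of counts that stayed inside was highest in PHLDB2, then in ACTN4 and TXNRD1, but the order depended on the loops counted. In PHLDB2, 498 counts lay inside and 418 left in replicate 1, and 624 and 469 in replicate 2. The share inside was 54.4% (95% exact binomial interval 51.1 to 57.6) and 57.1% (54.1 to 60.05), or 55.7% ± 1.93 (SD, n = 2). In ACTN4, 99 and 151 counts lay inside and 135 and 172 left, a share of 42.3% (35.9 to 48.9) and 46.7% (41.2 to 52.4), or 44.5% ± 3.14 (SD, n = 2). In TXNRD1, 61 and 75 counts lay inside and 108 and 127 left, a share of 36.1% (28.9 to 43.8) and 37.1% (30.5 to 44.2), or 36.6% ± 0.731 (SD, n = 2). The intervals of PHLDB2 lay above those of TXNRD1 in both replicates. Between the replicates no difference in the share was detected in any gene (Fisher's exact test, two-sided, adjusted p = 0.453 for PHLDB2, 0.914 for TXNRD1 and 0.453 for ACTN4 over 3 genes). The share of PHLDB2 was 49.0% over its canonical span and 39.1% with no distance limit. Among loops with at least 2 summed counts the order turned, with 75.3% in PHLDB2, 79.5% in TXNRD1 and 65.6% in ACTN4, and with at least 5 the shares were 92.2%, 100% and 93.6%. Over 13505 protein-coding genes with at least 2 anchors in the canonical span, the median share was 13.3%, with a median of 5 anchors. Genes whose anchor number was within 20% of that of the member's canonical span had higher medians. These were 24.3% for PHLDB2, 22.7% for TXNRD1 and 19.4% for ACTN4.

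Inside loops were far shorter than leaving loops. Their median lengths, measured between anchor midpoints, were 52.2 kb against 316 kb in PHLDB2, 32.0 against 439 kb in TXNRD1 and 22.9 against 248 kb in ACTN4. The limits of the gene bodies fix part of this difference, since an inside loop cannot be longer than its gene. Of all anchor pairs within a gene, 264 of 465 in PHLDB2, 38 of 78 in TXNRD1 and 34 of 45 in ACTN4 had at least 1 count. Both replicates had counts in 123, 13 and 20 of these loops, and in 80, 8 and 27 of the 681, 219 and 235 leaving loops. Over all anchors, 1017526 loops had counts in replicate 1 and 1156897 in replicate 2, of 1973472 with counts in either.

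Loops with summed counts of at least 5 over both replicates were taken as strong. They made up 1.47% of all loops within 2 Mb. Of the inside loops, 56 of 264 were strong in PHLDB2 (21.2%), 15 of 34 in ACTN4 (44.1%) and 6 of 38 in TXNRD1 (15.8%). Of the leaving loops, 9 of 681 were strong in PHLDB2 (1.32%), 2 of 235 in ACTN4 (0.851%) and 0 of 219 in TXNRD1, which allows a share of up to 1.37%. Since the genes were chosen for such loops, nothing is read from this contrast. The share of strong loops among all loops also fell with length, from 10.2% under 10 kb through 5.61% at 10 to 20 kb, 1.46% at 20 to 50 kb, 0.492% at 50 to 100 kb and 0.197% at 100 to 250 kb to 0.0341% beyond. Beside these values, 14 of 22 inside loops of PHLDB2 were strong under 10 kb, 13 of 33 at 10 to 20 kb, 21 of 73 at 20 to 50 kb, 7 of 65 at 50 to 100 kb and 1 of 71 at 100 to 250 kb. In ACTN4 the numbers were 5 of 8, 3 of 8, 7 of 14 and 0 of 4 for the first 4 classes, and in TXNRD1 2 of 6, 1 of 6, 0 of 12 and 3 of 10. Just inside the threshold, 8, 2 and 1 inside loops of PHLDB2, TXNRD1 and ACTN4 had 5 counts, and just outside it 16, 2 and 0 had 4 counts. At least 10 summed counts were found in 33, 3 and 7 inside loops of these genes and in 0.162% of all loops within 2 Mb. With a minimum of 5 counts in each replicate, 22, 3 and 6 inside loops and 1, 0 and 0 leaving loops passed, for which no share over all loops is at hand. Strong loops held 66.4% of the inside counts of PHLDB2, 61.0% of TXNRD1 and 87.6% of ACTN4.

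**Figure D1:**
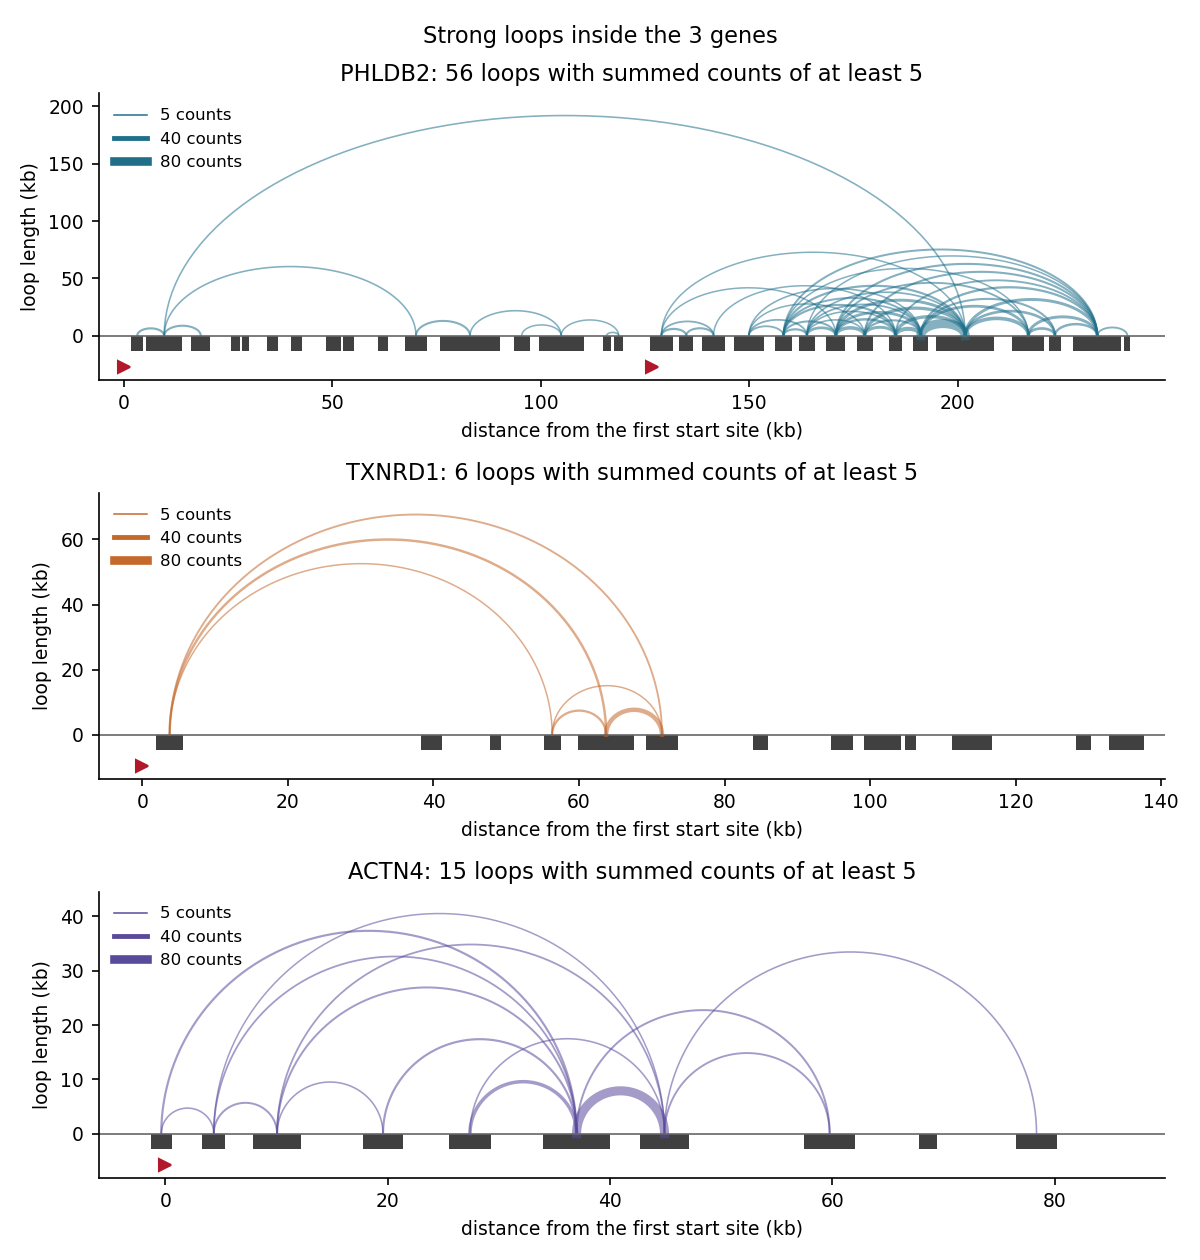
Strong loops inside PHLDB2, TXNRD1 and ACTN4, drawn as arcs between anchor midpoints, with the distance from the first start site in kb on the x axis, the loop length in kb as the height and the summed counts of both replicates as line width. Grey blocks are anchors and red triangles the first and the canonical start sites. The 56 loops of PHLDB2 form a sparse set of 8 before and a dense set of 47 after the canonical start, with 1 across it, the 6 of TXNRD1 join the first anchor and the anchors 4 to 6, and of the 15 of ACTN4, 12 include anchor 6 or 7.

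In PHLDB2 the loops formed a dense block over the 3′ portion of the gene. The anchors were divided at the canonical start into 16 before it and 15 after it, a division chosen after the values had been seen. Pairs with both anchors after the canonical start held 346 counts in replicate 1 and 415 in replicate 2, which is 67.8% of the inside counts, and 47 of the 56 strong loops. Pairs with both anchors before it held 86 and 104 counts (16.9%) and 8 strong loops. Pairs across it held 66 and 105 counts (15.2%) and 1 strong loop. That loop was found after the values had been seen, and it joined anchor 2, in intron 1, with anchor 27 over 192 kb with 2 and 4 counts. The mean count per possible anchor pair was 7.25 (95% exact Poisson interval 6.74 to 7.78) after, 1.58 (1.37 to 1.83) before and 0.713 (0.610 to 0.828) across the canonical start.

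The strongest loop of PHLDB2 joined anchor 26 at chr3:111640687-111644355, in intron 6, with anchor 27 at chr3:111646150-111660188 over 10.6 kb. It had 45 counts in replicate 1 and 40 in replicate 2, and 5 of the 1973472 loops, this one included, had summed counts of 85 or more. It lies next to anchors of high counts. The edges of its anchors were only 1.8 kb apart, since lengths are measured between midpoints. The other strongest loops of the gene were 16 and 16 counts between anchors 25 and 26 (6.06 kb), 9 and 18 between anchors 27 and 28 (15.2 kb), and 11 and 15 between anchors 23 and 24 (6.91 kb). They were followed by 9 and 15 between anchors 25 and 27 (16.7 kb) and 10 and 13 between anchors 24 and 27 (24.1 kb). All 6 were present in both replicates, which their choice by summed counts makes likely, and 4 of them included anchor 27.

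The canonical start region of PHLDB2 lay outside the 6 strongest loops. Anchor 17 at chr3:111577581-111583020, which holds 6 start sites, had 25 and 29 inside counts, 54 in sum, and 4 strong inside loops. The medians over the anchors of the gene were 53 inside counts and 2 strong inside loops. The strongest loop of anchor 17 reached the neighbouring anchor 18 with 7 and 5 counts over 5.97 kb. Its longest strong loop reached anchor 27 over 72.9 kb with 2 and 3 counts. By comparison, anchor 27 had 123 and 153 inside counts, 11 strong inside loops and 36 and 47 same-anchor counts, and 39 of all 250223 anchors had more same-anchor counts. Further start sites of PHLDB2 lay after the canonical start, 2 in anchor 20, 1 in anchor 24 and 1 in anchor 28. Among the strongest loops, those between anchors 27 and 28, 23 and 24, and 24 and 27 included such an anchor.

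Among the 31 PHLDB2 anchors, inside counts ranged from 13 to 276 with a median of 53, and same-anchor counts from 0 to 83 with a median of 8. Anchor 27 took part in 24.6% of the inside counts. In 7 anchors no inside loop was strong. Before the canonical start, anchor 2 at chr3:111456737-111465386 had the most inside counts, 39 and 48, and 16 and 15 same-anchor counts. Anchor 1, which lies nearer to the first start site, had 21 and 28 inside counts. The share of an anchor's counts that stayed inside was lowest in anchor 31, at the 3′ end, with 54.8%, and highest in anchor 26 with 84.1%.

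In ACTN4 most of the strong inside loops met a pair of neighbouring anchors in intron 1, since 12 of the 15 included anchor 6 or 7 and 3 included neither. Anchor 6 at chr19:39172286-39178281 took part in 66.0% of the inside counts, with 58 and 107 counts, and in 7 of the 15 strong loops. It also had 59 and 77 same-anchor counts, and 12 of all anchors had more. Anchor 7 at chr19:39180990-39185392 had 45 and 81 inside counts and 25 and 27 same-anchor counts. The midpoints of anchors 6 and 7 lay 7.91 kb apart and their edges 2.71 kb. The loop between them had 25 counts in replicate 1 and 60 in replicate 2, or 34.0% of the inside counts of the gene. It was the 1 of 32 named loops whose counts differed between the replicates, relative to the 46.4% of all loop counts in replicate 1 (exact binomial test, two-sided, adjusted p = 0.0493). The other 31 had adjusted p-values of at least 0.960, which does not show that they were alike.

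The ACTN4 promoter reached anchor 6 across 37.4 kb. The promoter anchor, at chr19:39136959-39138880, had 3 and 9 counts with anchor 6, the most of its inside loops, and 1 and 2 with anchor 7. Its other strong loop, to the next anchor 2 at 4.72 kb, had 1 and 5 counts. In all, the promoter anchor had 7 and 19 inside counts, so replicate 2 gave most of them. Anchor 6 was also joined with anchor 2 (2 and 6 counts, 32.6 kb), anchor 3 (5 and 5, 26.9 kb), anchor 4 (6 and 6, 17.4 kb), anchor 5 (10 and 16, 9.59 kb) and anchor 8 over exons 5 to 7 (5 and 5, 22.8 kb). Each of the anchors 1 to 5, 7 and 8 thus had a strong loop with anchor 6. With anchor 10, over exons 15 to 18, it had 2 and 0 counts at 41.4 kb, and with anchor 9, over exon 10, it had none in these libraries. Divided at exon 2, a division chosen after the values had been seen, the 7 anchors before it held 75 and 135 counts among themselves, which is 84.0% of the inside counts. The 3 anchors after it held 1 and 4.

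In TXNRD1 the loops joined the first intron with the region of the inner start sites. The strongest loop, over 7.67 kb, joined anchor 5 in intron 3 with anchor 6 at chr12:104678730-104683181, which holds exon 4 and the 13 inner start sites, with 14 and 22 counts. The edges of these anchors were 1.64 kb apart. Anchor 1 at chr12:104611454-104615159, the nearest to the first start site, was joined with anchor 5 over 59.98 kb by 9 and 6 counts and with anchor 6 over 67.6 kb by 4 and 5 counts. With anchor 4, at 52.6 kb, it had 0 and 5 counts. Loops from anchor 4 to anchor 5 had 8 and 5 counts at 7.42 kb, and to anchor 6 had 3 and 2 counts at 15.1 kb. These 6 loops are all the strong ones of the gene, and they link 4 anchors to one another. Between the anchors 1 and 4, which lie 52.6 kb apart, the 2 other anchors had 15 and 5 inside counts.

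Anchor 5 of TXNRD1 took part in 57.4% of the inside counts, with 37 and 41, and had 34 and 35 same-anchor counts, and 71 of all anchors had more. Anchor 1 had 18 and 22 inside counts, 11 and 30 same-anchor counts and, unlike the other strong anchors, more leaving than inside counts (21 and 40). Of the 13 anchors, 9 had no strong inside loop. Divided at anchor 6, again after the values had been seen, pairs across the division held 29 and 44 counts (53.7%), pairs before it 25 and 21 (33.8%) and pairs from anchor 6 to the 3′ end 7 and 10 (12.5%). The last group contains most of the exons, and its counts per possible pair were 0.607 (95% exact Poisson interval 0.354 to 0.972), compared with 4.60 (3.37 to 6.14) before the division.

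**Figure D2:**
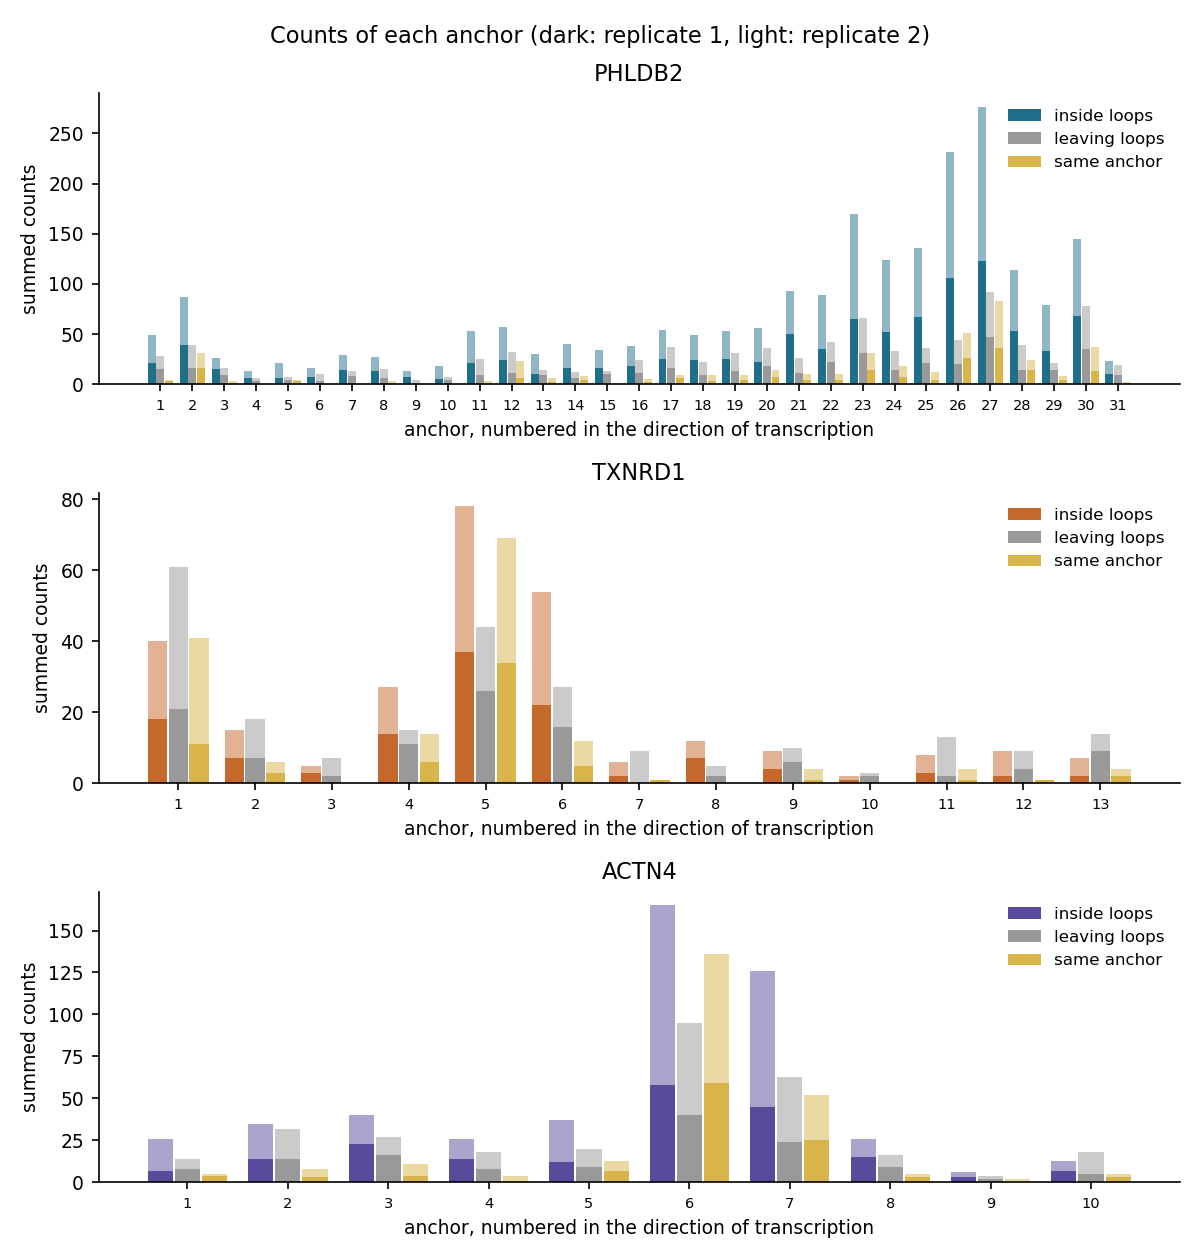
Counts of every anchor of PHLDB2, TXNRD1 and ACTN4, with anchors numbered in the direction of transcription on the x axis and counts on the y axis, for inside loops, leaving loops and the anchor with itself (dark for replicate 1, light for replicate 2). The highest bars are anchors 26 and 27 in PHLDB2, anchor 5 in TXNRD1 and anchors 6 and 7 in ACTN4.

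The same-anchor counts of these central anchors were high together with their loop counts, so the loop counts were set against an expectation. It was computed for every anchor pair, including pairs without counts, from the loop length and the depth of both anchors, with the count of the pair itself left out of that depth. On data simulated for 1 chromosome this form gave ratios above 1 for blocks without any raised pair, and the form that keeps the count of the pair gave too low ratios for raised blocks, so both are given. In PHLDB2, 1122 inside counts were observed and 889 expected, a ratio of 1.26 (95% exact Poisson interval 1.19 to 1.34), with 1.24 in replicate 1 and 1.28 in replicate 2. In TXNRD1 there were 136 and 80.5, a ratio of 1.69 (1.42 to 2.00), with 1.67 and 1.70. In ACTN4 there were 250 and 144, a ratio of 1.74 (1.53 to 1.97), with 1.57 and 1.86. With the own count kept, the ratios were 1.08 (1.02 to 1.15), 1.23 (1.03 to 1.46) and 1.10 (0.966 to 1.24), so that of ACTN4 moved by more than 1.5 times and its interval then included 1. The median over all 13505 genes was 1.24 with the own count left out and 1.06 with it kept. Leaving counts were below the expectation in all 3 genes, with 887 observed and 1035 expected in PHLDB2, 235 and 282 in TXNRD1 and 307 and 343 in ACTN4. This is not a separate result. The anchor weights were balanced so that, with the own count kept, the expected counts of each anchor add up to its observed counts. An inside ratio above 1 then forces a leaving ratio below 1, and the form with the own count left out uses the same weights. The interval of the ACTN4 leaving ratio included 1 (0.798 to 1.00), but with the own count kept it lay below 1 (0.779 to 0.977). These intervals do not allow for the balancing, and the inside interval of ACTN4 with the own count kept included 1, so no deficit is read from them. In PHLDB2 the leaving ratio varied with length. Leaving loops of 100 to 250 kb had a ratio of 1.14 (1.01 to 1.27), beside 1.15 for inside loops of that length. With the own count kept, that leaving ratio was 1.12 and its interval included 1 (0.991 to 1.25). Leaving loops beyond 250 kb, longer than the gene, had 0.716 (0.649 to 0.787).

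By length, the ratios of the genes had different forms. In PHLDB2 they were 1.20, 1.35, 1.36, 1.11 and 1.15 from under 10 kb to 100 to 250 kb, and the interval included 1 for both classes beyond 50 kb (0.944 to 1.31 and 0.952 to 1.38). With the own count kept, 20 to 50 kb was the 1 class of PHLDB2 whose interval lay above 1 (1.10 to 1.36), and the ratio under 10 kb was 0.928 (0.808 to 1.06). ACTN4 had its highest ratio under 10 kb, 2.22 (1.87 to 2.63), with 1.73 in replicate 1 and 2.60 in replicate 2, but 1.06 (0.888 to 1.25) with the own count kept. At 20 to 50 kb, where its promoter loop lies, the ratio was 1.46 (1.14 to 1.84), and 1.24 (0.969 to 1.56) with the own count kept. TXNRD1 had 2.36 (1.80 to 3.04) under 10 kb and 2.03 (1.44 to 2.79) at 50 to 100 kb, where anchor 1 meets anchors 4 to 6, but with the own count kept the order turned, to 1.23 (0.934 to 1.58) and 1.75 (1.24 to 2.40). The replicates gave 2.79 and 1.56 at 50 to 100 kb. Beyond 100 kb TXNRD1 had 6 inside counts, and the ratio of 2.76 had a wide interval (1.01 to 6.004). Keeping the own count gave 2.45 there (0.9004 to 5.34). TXNRD1 also had 1.10 (0.586 to 1.88) at 10 to 20 kb and 0.879 (0.537 to 1.36) at 20 to 50 kb, with the replicates on opposite sides of 1 in both classes (2.17 and 0.521, 0.415 and 1.22).

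**Figure D3:**
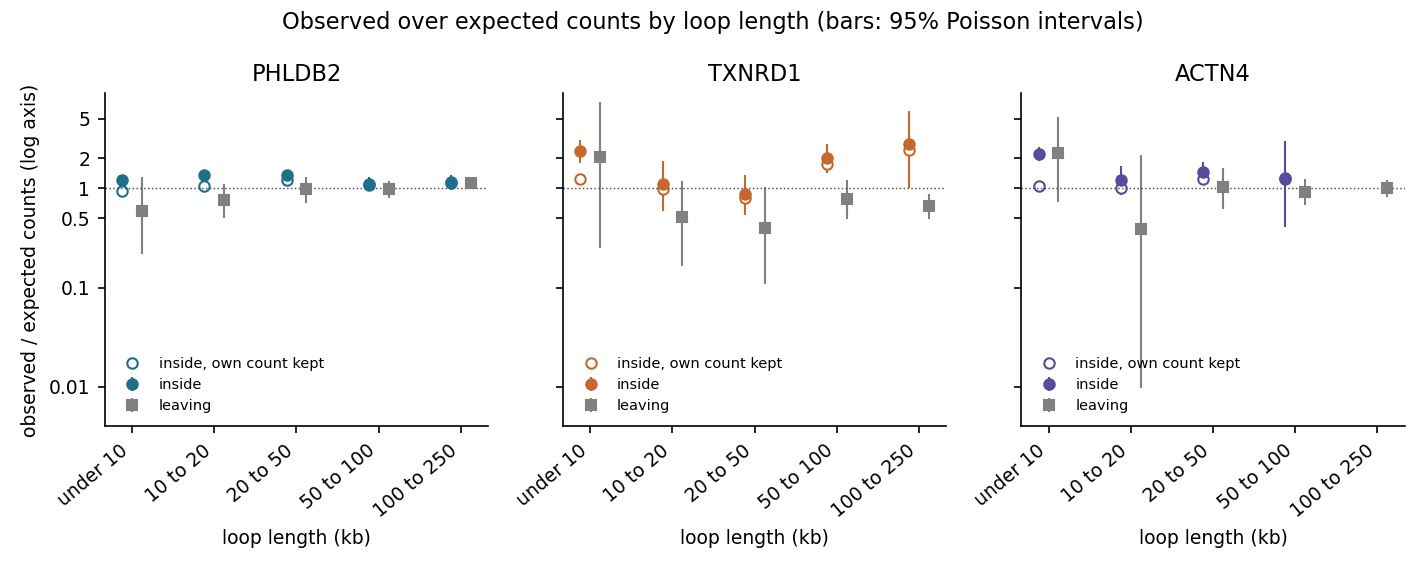
Observed over expected counts of inside and leaving loops of PHLDB2, TXNRD1 and ACTN4 (log y axis) by loop length in kb, summed over both replicates, with 95% exact Poisson intervals as bars and open circles for the expectation that keeps the own count. Filled points of TXNRD1 lie above 2 under 10 kb and beyond 50 kb, and that of ACTN4 under 10 kb, but under 10 kb the open circles fall to 1.23 in TXNRD1 and 1.06 in ACTN4.

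With the own count kept, the 4 highest ratios among the named inside loops belonged to loops between an anchor at or near a start site and an anchor over 30 kb away, but with it left out the short loop between anchors 5 and 6 of TXNRD1 ranked among them. The loop from the ACTN4 promoter to anchor 6 had 12 counts beside 2.71 expected, a ratio of 4.42 (2.29 to 7.73), and 2.94 with the own count kept. In TXNRD1 the loops from anchor 1 to anchors 5, 6 and 4 had ratios of 3.06 (1.71 to 5.04), 3.04 (1.39 to 5.77) and 2.97 (0.966 to 6.94), or 2.29, 2.46 and 2.46 with the own count kept. The shorter loops with the most counts had lower ratios once the own count was kept, 1.30 for anchors 5 and 6 of TXNRD1, 1.32 for anchors 26 and 27 of PHLDB2 and 1.03 for anchors 6 and 7 of ACTN4, in place of 3.21, 2.46 and 2.78. Of the 32 named loops, 31 had counts in both replicates, which their choice by summed counts makes likely. Without the strongest inside loop the ratio of the whole gene was 1.21 in PHLDB2, 1.44 in TXNRD1 and 1.46 in ACTN4, a setting added after the data had been seen.

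Within PHLDB2, the block after the canonical start had a ratio of 1.31 (1.22 to 1.40), the part before it 1.498 (1.29 to 1.73), and pairs across it 0.949 (0.812 to 1.10). With the own count kept these were 1.07 (0.999 to 1.15), 1.31 and 0.926. The block with most of the strong loops had the lower ratio of the first pair. In TXNRD1 pairs across anchor 6 had a ratio of 2.00 (1.57 to 2.51) and pairs after it 1.08 (0.626 to 1.72), or 1.31 and 0.968 with the own count kept. In ACTN4 pairs before exon 2 had 1.82 (1.58 to 2.08) and pairs across it 1.35 (0.940 to 1.88), or 1.08 and 1.14 with the own count kept, so that their order turned.

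**Figure D4:**
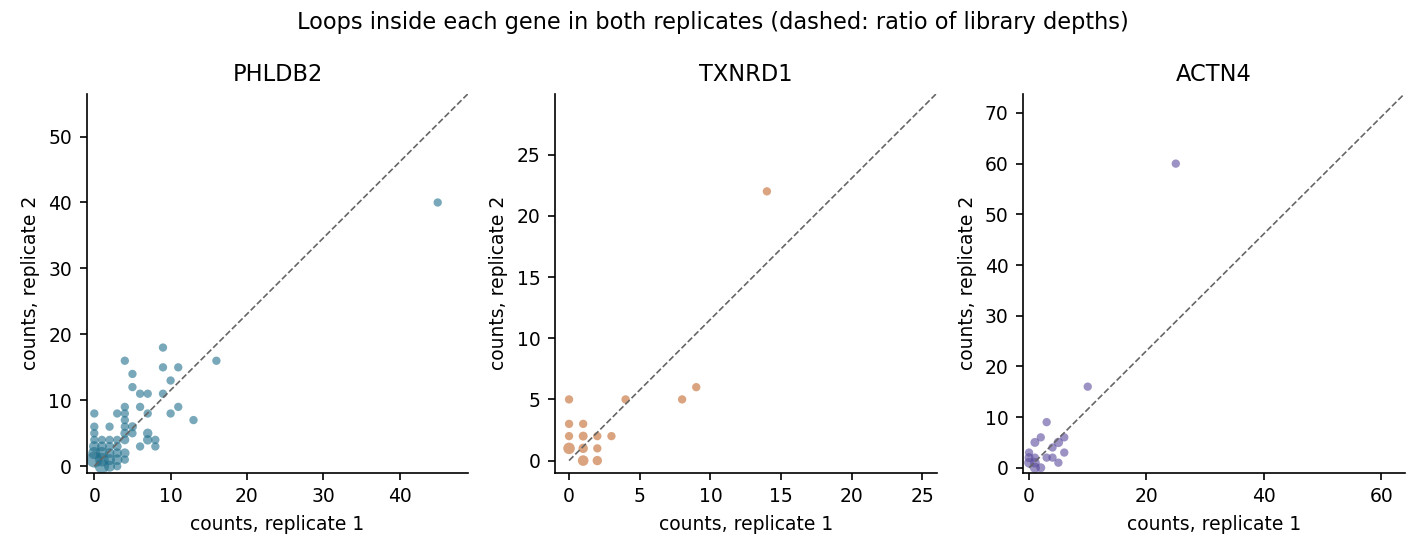
Counts of every loop inside PHLDB2, TXNRD1 and ACTN4 in replicate 1 (x axis) and replicate 2 (y axis), with larger points where several loops share the same counts and a dashed line at the ratio of the library depths. The loop of PHLDB2 with 45 and 40 counts lies below the line and that of ACTN4 with 25 and 60 counts lies well above it.

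The strongest leaving loops of PHLDB2 reached the next genes. All 9 strong leaving loops of PHLDB2 led downstream, over at most 102 kb. Anchor 27 and anchor 30 each had 10 counts with chr3:111696377-111700457, which holds the start of ABHD10, a mitochondrial thioesterase gene, as 5 and 5 counts over 45.2 kb and 6 and 4 counts over 13.6 kb. Anchor 27 also had 5 and 2 counts with the body of ABHD10 and 5 and 3 counts with an anchor over TAGLN3 at chr3:111718800-111725779, over 69.1 kb. Upstream, towards PLCXD2, 328 loops held 187 and 213 counts and none was strong. The downstream side held 231 and 256 counts in 353 loops, and the ratios to the expectation were 0.864 (0.782 to 0.953) upstream and 0.851 (0.777 to 0.930) downstream.

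Both strong leaving loops of ACTN4 led upstream from anchor 6. The loop to chr19:39106688-39111310, over 66.3 kb, had 7 and 2 counts, and its far anchor holds the starts of EIF3K, a subunit of a translation initiation factor, and MAP4K1, a kinase of blood cells. The loop to chr19:39005159-39009697, within RYR1, had 1 and 4 counts over 168 kb. Downstream, anchor 7 had 3 and 1 counts with an anchor in CAPN12, whose 3′ end overlaps that of ACTN4. The fourth named loop reached the shared start region of MRPS12 and SARS2 over 247 kb with 2 and 1 counts.

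No leaving loop of TXNRD1 had more than 3 summed counts. Its 2 highest came from anchor 1, with 2 and 1 counts to an anchor in HCFC2 over 120 kb and 2 and 1 counts to an anchor outside any protein-coding gene over 19.004 kb. The other named leaving loops had 1 and 1 counts each, from anchor 1 to CHST11 over 367 kb and from anchor 5 over 992 kb. Upstream, towards NFYB, 44 and 54 counts were observed, a ratio of 0.690 (0.560 to 0.841), and downstream, towards CHST11, 64 and 73, a ratio of 0.981 (0.824 to 1.16). Beyond 250 kb the sides differed, with 0.566 (0.413 to 0.757) upstream and 1.33 (1.09 to 1.61) downstream, in the same order in both replicates (0.537 and 0.589 against 1.29 and 1.37). At 100 to 250 kb the order was the opposite, 0.855 (0.585 to 1.21) upstream and 0.461 (0.263 to 0.748) downstream. No test of the sides was run. EID3, a gene that lies within TXNRD1, had no anchor over its start.

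Set beside other genes by the canonical span, PHLDB2 and ACTN4 were near the top in the number of strong loops and not in the ratio. Of 13505 protein-coding genes, 41.5% had at least 1 strong inside loop. PHLDB2 had 47 within its canonical span, and 0.037% of the genes had as many. ACTN4 had 15, reached by 0.378%, and TXNRD1 had 6, reached by 3.02%. In the ratio of observed to expected counts, PHLDB2 ranked 5807, ACTN4 2392 and TXNRD1 2605, and with the own count kept 6552, 6088 and 3754. Among genes of like anchor number, within 20%, the picture was the same for PHLDB2, while few genes reached the ratio of ACTN4 with the own count left out. None of 1397 such genes had as many strong loops as PHLDB2, while 477 had at least its ratio. None of 1968 had as many as ACTN4, and 90 had at least its ratio. Of 1291 genes like TXNRD1, 52 had at least its 6 strong loops and 39 at least its ratio. With the own count kept, 709, 251 and 897 of the like genes had at least the ratio of PHLDB2, TXNRD1 and ACTN4. These ranks are descriptions, because the genes were chosen for this measure.

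**Figure D5:**
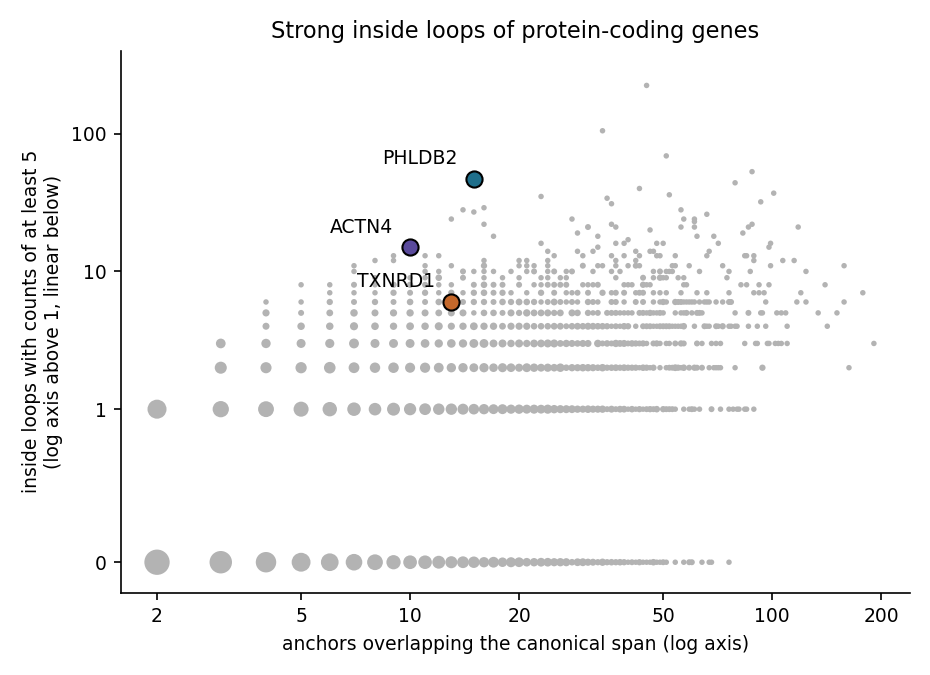
Number of strong inside loops (y axis, log above 1) against the number of anchors over the canonical span (log x axis) for 13505 protein-coding genes in grey, with larger points for more genes, and PHLDB2, TXNRD1 and ACTN4 in colour. PHLDB2 with 15 anchors and 47 loops and ACTN4 with 10 anchors and 15 loops lie above all genes of like anchor number, and TXNRD1 with 13 anchors and 6 loops lies within them.

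Genes of the same pathways were compared from 3 lists that had been written with earlier results of these data known. Of 27 genes of actin cross-linking and adhesion, the setting of ACTN4, 19 had a strong inside loop, with a median of 2 strong loops, beside 41.5% and a median of 0 over all 13505 genes. The highest were PALLD with 36 and LPP with 13, which encode scaffold proteins of stress fibres and adhesions, then LIMA1 with 10, TNS3 with 7 and TLN2 with 6. Of 17 genes of the cortical microtubule platform around PHLDB2, 12 had a strong inside loop, again beside 41.5% of all genes and with a median of 2. The highest were DST with 21, ERC1 and PPFIBP1 with 7 each, MACF1 with 5 and LAMA3 with 4. DST and MACF1 encode cross-linkers of actin and microtubules, and LAMA3 a chain of the laminin of epithelial basement membranes. Many of these genes are long, with medians of 11 and 18 anchors beside 5 over all genes, and the number of pairs rises with the anchors.

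Of 28 genes of the thioredoxin, glutathione and NRF2 system, the setting of TXNRD1, 20 had at least 2 anchors and 9 of these a strong inside loop, a share near the 41.5% of all genes. The highest were NFE2L2, which encodes NRF2, with 3, SLC7A11, the cystine transporter, with 2, and then genes with 1 each, among them ME1, GSR and SQSTM1. TXNRD1 with 6 had more strong inside loops than any of these 20 genes. The median over them was 0, with a median of 3 anchors. The median ratios of the lists were 1.34, 1.18 and 1.14 in the order given, beside 1.24 over all genes. Over their canonical spans ACTN4 with 1.74, PHLDB2 with 1.31 and TXNRD1 with 1.69 had higher ratios than these medians. With the own count kept they had 1.10, 1.07 and 1.23 beside list medians of 1.07, 1.06 and 0.945. The lists were not tested.

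Contacts over more than 2 Mb were counted apart. They made up 29.8% of the counts between different anchors in PHLDB2 (379 and 475 counts), 38.2% in TXNRD1 (103 and 126) and 21.1% in ACTN4 (66 and 83), beside 25.1% over all anchors. No such contact had more than 3 summed counts in PHLDB2, 2 in ACTN4 or 1 in TXNRD1.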

How the data were processed

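Both replicates of the H3K27ac HiChIP experiment in HCT116 cells, of 1 condition, entered the analysis. The authors digested chromatin with MboI, made valid pairs with HiC-Pro on hg19 (per the labels) and called loops with hichipper (per their methods), with versions and anchor settings not given in the sources used here. The deposited values were raw counts of read pairs per pair of anchors on 1 chromosome. The anchors of 24 of 24 nuclear chromosomes ended within the reference lengths.

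The members and the gene lists were chosen with earlier results of these data known. The counts of both tables were joined by anchor pair, and a loop had midpoints up to 2 Mb apart. The expected count came, per replicate, from 60 distance classes and anchor weights balanced in 20 rounds over all pairs, with an offset of 0.5, and was tested on simulated data. Named loops were the 6 inside and 4 leaving loops with the most summed counts per gene, ties to the longer, and the strongest inside loop of each anchor with a start site of a protein-coding transcript. Other genes were named as the next neighbours or by a start or gene body in the far anchor, and at most 5 per list. Shares between replicates were compared with Fisher's exact test and named loops with the exact binomial test, both with Benjamini-Hochberg adjustment. Intervals were exact binomial or Poisson at 95%. Depth limits single loops most, since most loops had few counts. Alternatives were the gene interval, anchor membership, distance limit, weighting, minimum count, expectation, each replicate left out and, chosen after seeing the data, the strongest loop left out. Contacts between chromosomes were not analysed here. Tools were Python 3.11.15, matplotlib 3.10.9, scipy 1.17.1, pysam 0.24.0, pandas 2.3.3, numba 0.67.0 and numpy 2.4.6.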

Additional observations from a re-analysis of the deposited data

How the results depend on the processing

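No paired analysis was possible because the data hold 1 group. Values are given in the order PHLDB2, TXNRD1, ACTN4, and causes were not tested unless the setting itself shows them. The share of counts inside moved with the distance limit, to 64.2%, 50.1% and 50.0% at 500 kb and to 39.1%, 22.6% and 35.1% with no limit. With each loop weighted equally it was 33.7%, 18.3% and 17.2%, with a minimum summed count of 2 it was 75.3%, 79.5% and 65.6%, and with a minimum of 5 it was 92.2%, 100% and 93.6%. The canonical span gave 49.0% for PHLDB2, and anchor midpoints gave 41.2% for ACTN4. Leaving out 1 replicate gave 54.4 to 57.1%, 36.1 to 37.1% and 42.3 to 46.7%.

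The ratio of observed to expected inside counts was 6.67, 3.13 and 8.15 with distance alone, 1.08, 1.23 and 1.10 with the own count kept, and 1.21, 1.44 and 1.46 without the strongest loop. At 20 kb or more it was 1.47 in TXNRD1 and 1.45 in ACTN4, and it was 1.31 over the canonical span of PHLDB2. With the own count kept the interval of ACTN4 included 1 (0.966 to 1.24), and the median over all genes was 1.24 with that count left out and 1.06 with it kept. Leaving out 1 replicate gave 1.24 to 1.28, 1.67 to 1.70 and 1.57 to 1.86. Strong inside loops numbered 22, 3 and 6 with 5 counts in each replicate, and 33, 3 and 7 with 10 summed counts. Leaving out 1 replicate gave 28 to 34, 3 to 5 and 8 to 10, because the threshold then met fewer counts. The comparison of shares between replicates found no difference by loops either. Of 72 alternative values, 39 moved by more than the spread between replicates or, for numbers of loops, by more than 1.5 times, and 33 did not. Counts per loop limit what can be said of loops below the threshold.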
